A study of Mus musculus with 20 samples.

Results

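The kallikreins of the epidermis and their direct regulators are described here across 5 sorted cell populations of mouse dorsal skin. The set holds 10 of the 53380 genes of the deposited table and was drawn by gene name, with earlier results of these data known: the 8 kallikreins *Klk5*, *Klk6*, *Klk7*, *Klk8*, *Klk10*, *Klk11*, *Klk13* and *Klk14*, the inhibitor *Spink5* and the activating protease *St14*. All 10 were found. Of these, 9 reached the level required for testing (a normalized count of at least 10 in at least 3 libraries), as did 17204 genes in all, and *Klk14* did not.

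Kallikreins are secreted serine proteases that are made as inactive precursors by keratinocytes on their way to the skin surface. Klk5 cleaves with trypsin-like specificity and can activate itself and the precursor of the chymotrypsin-like Klk7, and both then degrade the desmosomal proteins that hold the outermost cells together, which lets the skin shed. Lekti, the product of *Spink5*, inhibits Klk5, Klk7 and Klk14, and its loss causes the barrier disease Netherton syndrome. Matriptase, the product of *St14*, is a membrane-bound protease that acts upstream in the same cascade and can activate kallikrein precursors.

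The libraries came from epidermal cells sorted by flow cytometry. Thy1hi cells (n = 4) are interfollicular keratinocytes positive for integrin-α6 and Sca1 with high Thy1, and Thy1- cells (n = 4) carry the first 2 markers without Thy1. Hair follicle stem cells (HFSCs, n = 4) were sorted as CD34+ and Sca1-, and dendritic epidermal T cells (DETCs, n = 5), the T cells resident in the epidermis, as Thy1+ with little or no Sca1. A further 3 libraries hold Thy1hi cells that carry the YFP lineage label (Thy1hi YFP+ cells). Their titles give them as Sca1+ and their cell type label as Sca1-, and *Ly6a*, the gene of Sca1, was at 200.5 to 401 in them against 185 to 261 in Thy1hi cells. The labels give all 20 samples the genotype Thy1.2CreERT2-Rosa26-EYFP, no treatment and ages from 8 to 27 weeks that rise by 1 week per sample, whereas the methods describe wild-type C57BL/6J mice of 8 weeks for the unlabelled populations and tamoxifen induction for the YFP+ cells. In that line *Thy1* promoters drive the inducible Cre and, as the paper states, also an EYFP apart from the lineage label. The paper saw this EYFP in the brain and did not detect it in the epidermis. Some legends of the paper give numbers of mice for these populations and others give pooled mice. The heatmap legend counts 5 mice for HFSCs and 4 for DETCs, the reverse of the libraries here. P-values therefore measure the spread between these libraries, which may not be that between animals.

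Markers followed the labels. *Thy1* was at 511 to 775 normalized counts in Thy1hi cells and at 63.1 to 77.8 in Thy1- cells, *Cd34* was at 1600 to 2622 in HFSCs and at most at 130 elsewhere, and the sum of 6 T cell markers was 19033 to 39659 in DETCs and at most 424 elsewhere. No marker of basal keratinocytes was at 0 in DETCs, where the sum of *Krt5*, *Krt14*, *Itga6*, *Itgb4* and *Col17a1* was 9972 to 46131 against 171225 to 228574 in Thy1hi cells. Reads on genes numbered 7781256 to 12982393 per library. Thy1hi and Thy1- libraries number 4 and YFP+ library number 3 had reads on 20221 to 21150 genes, and the other libraries of these 3 populations on 23691 to 32129. In Thy1- library 4, 3212 genes stood in displaced rows and were put back, none of them a member.

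The 8 kallikreins lie on the plus strand of 1 gene cluster on chromosome 7 (mm10), in the order *Klk14* (43690418 to 43695536), *Klk13* (43712567 to 43727534), *Klk11* (43774604 to 43779263), *Klk10* (43781035 to 43785410), *Klk8* (43797577 to 43803826), *Klk7* (43811294 to 43816359), *Klk6* (43824499 to 43832030) and *Klk5* (43841971 to 43851181). *Klk9* lies between *Klk10* and *Klk8*. The first and the last start are 151.6 kb apart. Exons of *Klk8* and *Klk14* overlap those of the opposite-strand transcript *2310002F09Rik*, and the strand setting of the counting is not given in the sources used here, so that counts of these genes may include reads of that transcript, which itself had 2 to 24 reads per library.

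RefSeq promoters (GRCm38.p6) were matched for 8 of the 10 members. The 150 bases before the start site are printed for 4 neighbours of the cluster, because their transcripts took different courses across the populations described below: *Klk7* was lower in Thy1hi than in Thy1- cells with the libraries paired, *Klk8* was highest on average in DETCs, and *Klk10* and *Klk11* were higher in Thy1hi cells than in DETCs. Capitals mark the KLF box CCACCC or its reverse complement, the letters bound by factors of the Krüppel-like family, of which Klf4 is a known regulator of epidermal differentiation.
Klk11, chr7:43774467-43774616, plus strand: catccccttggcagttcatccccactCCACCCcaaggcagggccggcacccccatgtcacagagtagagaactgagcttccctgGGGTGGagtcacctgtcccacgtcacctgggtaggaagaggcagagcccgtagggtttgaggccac
Klk10, chr7:43780904-43781053, plus strand: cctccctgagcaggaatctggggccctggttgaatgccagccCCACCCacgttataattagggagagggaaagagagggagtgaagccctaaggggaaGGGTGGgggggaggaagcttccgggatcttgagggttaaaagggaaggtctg
Klk8, chr7:43797427-43797576, plus strand: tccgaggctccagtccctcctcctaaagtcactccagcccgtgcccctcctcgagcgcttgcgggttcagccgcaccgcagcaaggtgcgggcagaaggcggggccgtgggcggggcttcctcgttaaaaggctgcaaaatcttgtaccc
Klk7, chr7:43811144-43811293, plus strand: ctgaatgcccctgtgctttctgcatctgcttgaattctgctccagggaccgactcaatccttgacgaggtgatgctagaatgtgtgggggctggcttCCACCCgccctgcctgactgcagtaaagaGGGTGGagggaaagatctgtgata

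*Klk6* and *Klk11* each had a further start site, and a member was counted if any of its windows held the letters. The shares over all promoters count each window by itself, so counts and shares are not of the same unit. Within the 250 bases before the start sites, searched on both strands, the KLF box stood before 6 of the 8 members (*Klk5*, *Klk7*, *Klk10*, *Klk11*, *Klk13* and *Klk14*), against 28.08% of 32851 promoters. The box was thus found before *Klk7*, at positions -53 and -24 from the start site, and also before *Klk10*, at -108 and -52, and before the first *Klk11* start, at -124 and -66. None was found before *Klk8* or *Klk6*. The C/EBP core TTNNGNAA stood before *Klk6*, *Klk11* and *Klk13* (3 of 8, against 36.85% of all promoters), and the p53 family letters CATG before 4 of 8 (against 53.95%). The AP-1 letters TGANTCA, present in 6.749% of promoters, and the Grainyhead letters AACCNGTT, present in 1.79%, were in none of the windows of the 8 members. CCACCC and the other motifs were matched letter by letter, and a match is a description of the sequence only.

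Levels between genes were compared as normalized counts per kb of exon. *Spink5* was the most abundant member in Thy1hi cells, at 221 ± 126 per kb (SD, n = 4), followed by *Klk11* at 157 ± 22.3, *St14* at 118 ± 39.1 and *Klk7* at 102 ± 28.9. *Klk10* (58.7 ± 12.4 per kb), *Klk5* (37.4 ± 14.8) and *Klk8* (30.2 ± 14.1) came next. The spread of *Spink5* overlapped those of *Klk11*, *St14* and *Klk7*, and the spread of *St14* overlapped those of *Klk11* and *Klk7*. The spreads of *Klk5* and *Klk8* also overlapped. *Klk11* and *Klk7* were apart, with the lowest *Klk11* library at 140 per kb and the highest *Klk7* library at 129. In Thy1hi library 1 *Spink5* was at 67.6 per kb, below *Klk11* at 159, *St14* at 109.6 and *Klk10* at 72.4. The lead of *Spink5* is thus one of the mean and not of every library. In Thy1- cells *Spink5* stood at 576 ± 243 per kb (SD, n = 4), and *Klk7*, at 299 ± 121, took on average the place that *Klk11* held in Thy1hi cells. *Klk11* was at 149 ± 38.4 per kb there and *Klk5* at 103 ± 40.1. In Thy1- library 1 *St14*, at 199 per kb, was above *Klk7* at 191. *Klk6* stayed below 11 per kb on average in all 5 populations, and *Klk13* and *Klk14* were near or below what these libraries can measure.

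**Figure D1:**
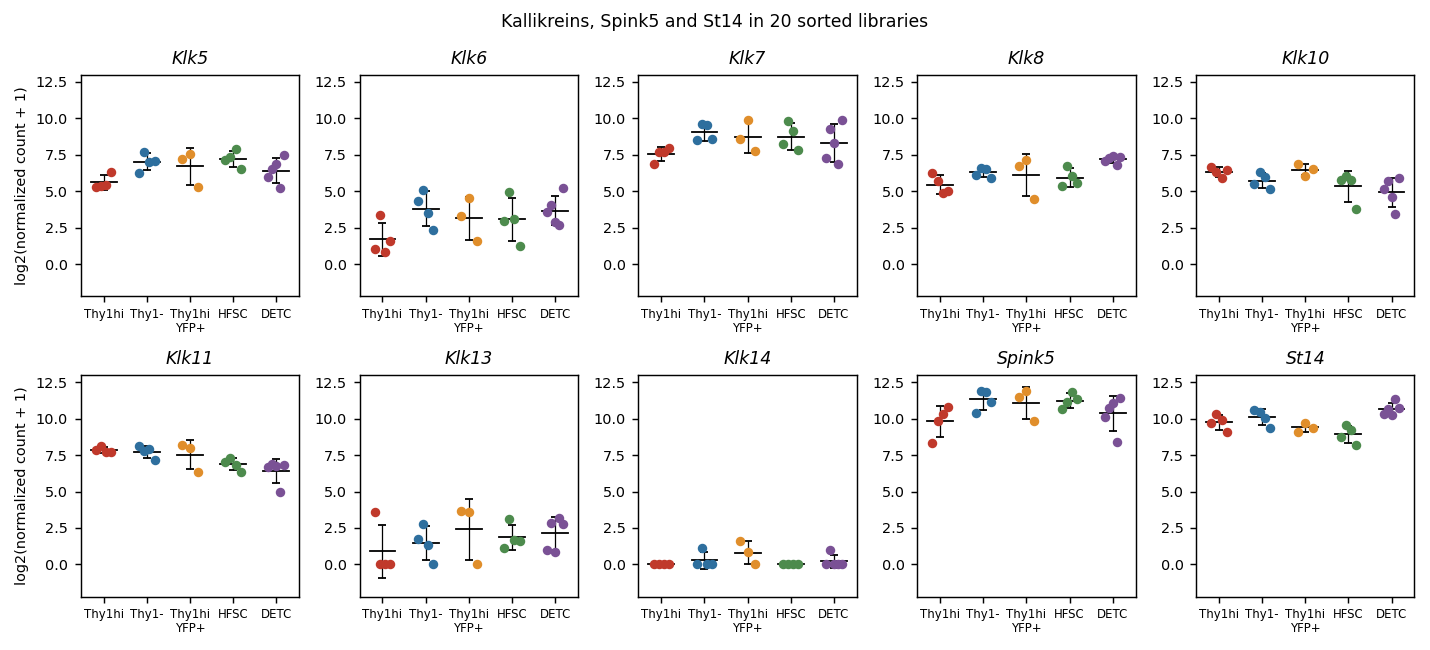
Normalized counts of the 10 members in 20 libraries, 1 panel per gene. The vertical axis is log2(normalized count + 1), points are libraries, long bars are means and error bars are SD, for Thy1hi (n = 4), Thy1- (n = 4), Thy1hi YFP+ (n = 3), HFSC (n = 4) and DETC (n = 5). *Klk7* libraries of Thy1hi and Thy1- cells do not overlap, *Klk8* is highest on average in DETCs, and *Klk14* lies at or near 0 throughout.

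The first comparison asks how Thy1hi keratinocytes differ from the Thy1- cells of the epidermis. *Klk5*, *Klk6*, *Klk7* and *Spink5* were lower in Thy1hi cells in all 4 pairs of same-numbered libraries, by 2.68 to 4.30-fold on average, and passed the test once these pairs were taken as blocks. *Klk10* and *Klk11*, next to each other in the cluster, were at similar or higher values in Thy1hi cells and did not pass. Without the blocks limma called none of the 9 members, against 0.337% of all genes. At an unadjusted p under 0.05 limma, edgeR and DESeq2 each had 4 members, against 1242, 1245 and 1414 of the 17204 genes tested. The labels do not say that libraries of the same number share animals. Same-numbered libraries deviated together from their population means in all 4 pairs (r = 0.293 to 0.716). Some libraries of different number did so too: Thy1- library 1 went more with Thy1hi library 2 (r = 0.514) than with Thy1hi library 1 (0.293). The pairing is thus not certain, and the fit with the blocks is given beside each gene. It uses these 2 populations alone, and a block over all 5 populations, in which the unnumbered DETC libraries a and b each stood alone, called none of the members, with *Klk6* and *Klk7* nearest to the threshold (adjusted p = 0.0523 each by limma). In the blocked fit of these 2 populations alone 4 of 9 members were lower in Thy1hi cells and none higher, against 3.19% of all genes lower. The median difference of the 9 members was -0.83 on the log2 scale against -0.02 over all genes tested.

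*Klk7*, the chymotrypsin-like protease of desmosome shedding, had normalized counts of 116, 208, 207 and 244 in the Thy1hi libraries 1 to 4. In the Thy1- libraries 1 to 4 it had 362, 793, 736 and 377. Every Thy1hi library lay below every Thy1- library, which no other member showed and which held for 3.17% of the genes tested. The log2 difference was -1.50 ± 0.58 (SE) without the blocks, with an adjusted p of 0.472 by limma, and ± 0.19 with them, with an adjusted p of 0.00197. The exact permutation test of the means, two-sided and without pairs, gave p = 0.0286, the smallest that 4 against 4 libraries allow. Leaving out each pair in turn kept the blocked call, with adjusted p of 0.000762 to 0.0228.

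*Klk5*, the trypsin-like initiator of the cascade, was at 38.6, 39.5, 42.3 and 79.6 in the Thy1hi libraries and at 76.6, 207, 130 and 134 in the Thy1- libraries. Thy1hi library 4 stood apart from its own group and was above Thy1- library 1, so the groups overlapped. The log2 difference was -1.42 ± 0.49 (SE; adjusted p = 0.347 by limma) without the blocks and ± 0.26 with them (adjusted p = 0.00944). Without pair 3 the blocked adjusted p was 0.0682, and without each of the other pairs it was 0.0135 to 0.0431.

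*Klk6*, a trypsin-like protease also known as neurosin, was scarce. The 4 Thy1hi libraries held 1 to 7 reads of it and the Thy1- libraries 5 to 28. Normalized counts were 1.10, 9.22, 0.81 and 1.94 in Thy1hi cells and 19.5, 32.4, 10.2 and 4.10 in Thy1- cells, and the groups overlapped through Thy1hi library 2. The log2 difference was -2.11 ± 0.82 (SE; adjusted p = 0.479 by limma) without the blocks and ± 0.49 with them (adjusted p = 0.0302). This call held without pair 4 (adjusted p = 0.0231) and was lost without pair 1, 2 or 3 (0.121, 0.0963 and 0.146).

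*Klk8*, the protease neuropsin, was at 75.1, 51.4, 28.4 and 31.0 in the Thy1hi libraries and at 69.3, 94.9, 89.9 and 59.8 in the Thy1- libraries. It was lower in Thy1hi cells in 3 of 4 pairs, the exception being pair 1. The log2 difference of -0.83 ± 0.27 (SE) with the blocks had an adjusted p of 0.108 by limma and of 0.0402 by edgeR with the same blocks, a fit in which 5 of 9 members were lower in Thy1hi cells against 4.31% of all genes. Without pair 1 the limma value was 0.0445.

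*Klk10* went the other way. It was at 99.4, 79.0, 58.5 and 85.4 in the Thy1hi libraries and at 43.8, 78.7, 60.7 and 35.2 in the Thy1- libraries, higher in 3 of 4 pairs. Pairs 2 and 3 differed by 0.01 and -0.05 on the log2 scale, so the mean difference of 0.59 ± 0.26 (SE, with the blocks; adjusted p = 0.242 by limma) rested on pairs 1 and 4. *Klk11*, a trypsin-like protease, was at 233, 275, 206 and 206 in the Thy1hi libraries and at 278, 215, 235 and 143 in the Thy1- libraries. It was higher in 2 pairs and lower in 2, and its log2 difference of 0.11 ± 0.15 (SE, with the blocks; adjusted p = 0.766 by limma) was smaller than its error.

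*Klk13* and *Klk14* could not be compared at this depth. *Klk13* had 10 reads in Thy1hi library 1 and none in the other 3, 0 to 5 reads in the Thy1- libraries, 1 to 7 in HFSCs, 1 to 6 in DETCs and 0 to 14 in YFP+ cells, and passed in no comparison. *Klk14*, a trypsin-like protease that Lekti inhibits, had no read in any Thy1hi or HFSC library and at most 2 in any library, under a floor of 3 reads, which corresponds to normalized counts of 2.10 to 4.12 depending on the library.

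*Spink5*, the inhibitor, lies on chromosome 18 (43963235 to 44022501, plus strand). It was at 323, 896, 1249 and 1763 in the Thy1hi libraries and at 1330, 3789, 3616 and 2284 in the Thy1- libraries. Within every pair the Thy1hi library was lower, by 2.04, 2.08, 1.53 and 0.37 on the log2 scale for pairs 1 to 4. The mean log2 difference of -1.51 had an SE of 0.59 without the blocks (adjusted p = 0.493 by limma) and of 0.23 with them (adjusted p = 0.00435), and the blocked call held without any 1 pair, with adjusted p of 0.000762 to 0.0385. Protease and inhibitor were thus lower together: the differences of *Klk7* and *Spink5* within pairs were -1.64 and -2.04, -1.92 and -2.08, -1.82 and -1.53, and -0.62 and -0.37.

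*St14*, on chromosome 9 (31089402 to 31131853, minus strand), was at 837, 1246, 979 and 530 in the Thy1hi libraries and at 1521, 1401, 1037 and 649 in the Thy1- libraries. It was lower in Thy1hi cells in all 4 pairs, but by 0.08 to 0.86 on the log2 scale, and the mean of -0.35 ± 0.13 (SE, with the blocks) did not pass (adjusted p = 0.159 by limma). Being lower in all 4 pairs held for 5 of the 9 members tested (*Klk5*, *Klk6*, *Klk7*, *Spink5* and *St14*) and for 13.5% of all genes.

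**Figure D2:**
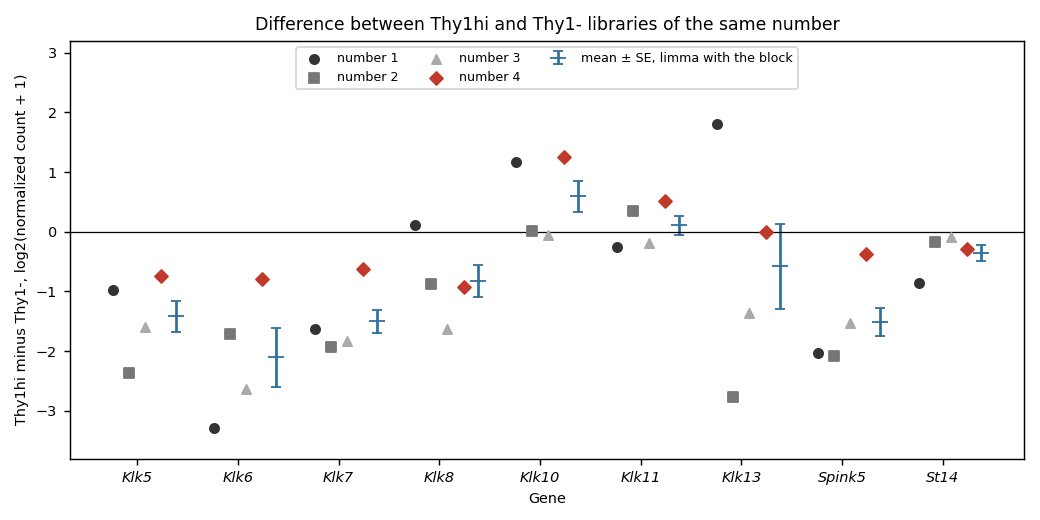
Log2 difference in normalized count + 1, Thy1hi minus Thy1- library of the same number, for the 9 members tested. Symbols are the 4 pairs, and blue marks are the mean ± SE of limma with the pairs as blocks. *Klk5*, *Klk6*, *Klk7*, *Spink5* and *St14* lie below 0 in all 4 pairs, with pair 4 nearest to 0 for the first 4, while *Klk10* and *Klk11* lie around or above 0.

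Pair 4, whose libraries had reads on fewer genes, showed the smallest differences for *Klk5*, *Klk6*, *Klk7* and *Spink5*. Without it the blocked log2 differences of these 4 genes were -1.64, -2.54, -1.79 and -1.88. Markers of differentiated keratinocytes moved with these members. All 7 that were measured (*Krt1*, *Krt10*, *Krtdap*, *Sbsn*, *Lor*, *Ivl* and *Hrnr*) were lower in Thy1hi cells with the blocks, with summed levels of 8491 to 26883 against 26391 to 40171 in Thy1- cells. All 5 basal markers were higher, against 3.42% of all genes higher in that fit, with summed levels of 171225 to 228574 against 75406 to 121650. Of 4 upper hair follicle markers 3 (*Krt79*, *Krt17* and *Lrig1*) were lower, and the sums of the 4 did not overlap, at 6841 to 8184 against 11979 to 12244. The 3 Langerhans cell markers were lower, at sums of 399.6 to 962 against 730 to 1500, and 4 of 5 fibroblast markers were higher, at sums of 163 to 1912 against 102 to 176. The part of these cells in the differences of *Klk5*, *Klk6*, *Klk7* and *Spink5* was not tested, and in bulk samples fewer cells of a type and less RNA per cell cannot be told apart.

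Among the members and *Klk9*, the genes of the cluster that passed with the blocks were *Klk7*, *Klk6* and *Klk5*. These neighbours lie farthest from the start of *Klk14* among the genes shown, at 120.9, 134.1 and 151.6 kb. The other kallikreins of the table were not placed here. *Klk8*, at 107.2 kb, and *Klk9*, at 101.5 kb, had log2 differences of -0.83 and -1.24, the latter with a blocked adjusted p of 0.0579 by limma. *Klk9* was at 16.6, 25.0, 15.4 and 45.6 in the Thy1hi libraries and at 59.6, 79.8, 52.1 and 41.0 in the Thy1- libraries, lower in 3 of 4 pairs. *Klk10* and *Klk11*, at 90.6 and 84.2 kb, were the only tested genes of the cluster shown here whose mean difference was above 0.

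**Figure D3:**
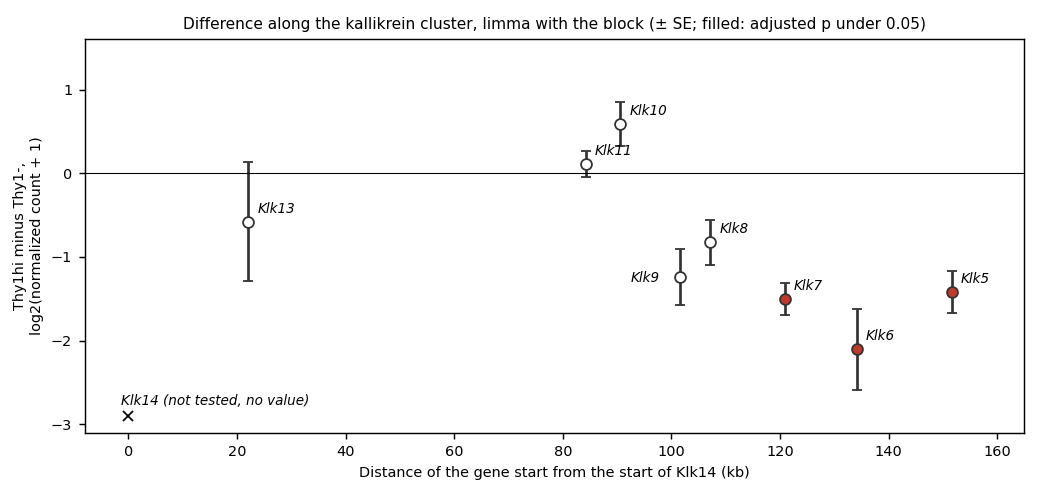
Mean log2 difference between Thy1hi and Thy1- cells (4 pairs) against the distance of each gene's start from the start of *Klk14* in kb, with SE from limma with the pairs as blocks. Filled points have an adjusted p under 0.05, and *Klk14* was not tested and has no value. *Klk5*, *Klk6* and *Klk7*, farthest from *Klk14* among the genes shown, lie between -2.11 and -1.42, and *Klk10* and *Klk11* at 0.59 and 0.11.

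The make-up of the kallikrein transcripts differed accordingly. Of the summed normalized counts per kb over the 26 kallikrein genes of the table, *Klk7* held 15.5% to 30.5% in the Thy1hi libraries and 33.4% to 48.6% in the Thy1- libraries. *Klk11* held 31.5% to 41.6% and 15.7% to 33.1%, and *Klk10* 11.9% to 18.3% and 5.21% to 6.12%. *Klk11* therefore led in each Thy1hi library and *Klk7* in each Thy1- library, though in Thy1- library 1 by 33.4% to 33.1%. In DETCs *Klk8* reached 11.3% to 34.3%, against 4.53% to 12.3% in Thy1hi cells. These shares add to a fixed whole, so that a rise of 1 gene's share lowers the others.

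**Figure D4:**
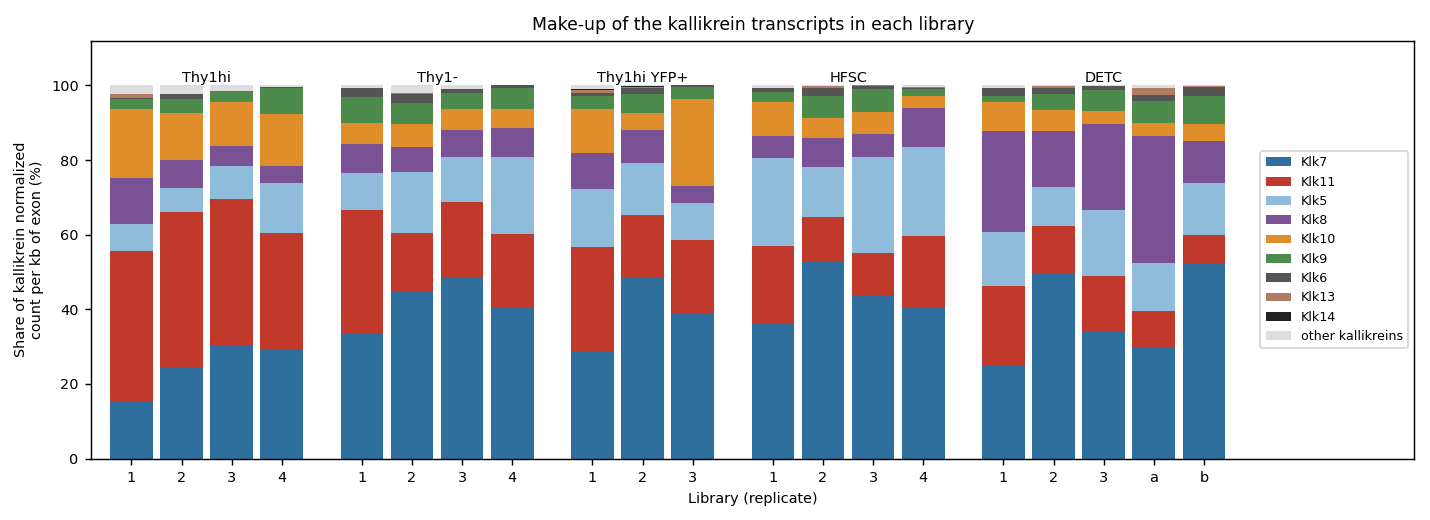
Share of each kallikrein in the summed normalized count per kb of exon (vertical axis, percent) in the 20 libraries, grouped by population. *Klk11* (red) is the largest band in the 4 Thy1hi libraries and *Klk7* (blue) in the 4 Thy1- libraries, and the *Klk8* band (purple) reaches 34.3% in DETC library a.

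Thy1hi cells were next set against HFSCs. Only *Klk5* passed, lower in Thy1hi cells by 3.06-fold, which makes 1 of 9 members against 13.4% of all genes. It was at 137, 163, 235 and 91.1 in HFSC libraries 1 to 4, all above the Thy1hi libraries given above. The log2 difference was -1.62 ± 0.49 (SE; adjusted p = 0.0313 by limma; exact permutation p = 0.0286, the smallest possible). The call was lost without HFSC library 1, 2 or 3 or Thy1hi library 1, 2 or 3, with adjusted p of 0.0535 to 0.0949. *Klk5* and *Klk11* were the 2 members whose libraries did not overlap, against 19.3% of all genes. *Klk11* was at 130, 157, 114 and 80.6 in HFSCs, all below its Thy1hi libraries, and its log2 difference of 0.96 ± 0.40 (SE) had an adjusted p of 0.121 by limma.

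*Klk7* and *Spink5* had values in HFSCs that overlapped those of both keratinocyte populations. *Klk7* was at 298, 901, 567 and 223 in HFSCs and *Spink5* at 1595, 2234, 3664 and 2544. Their log2 differences between Thy1hi cells and HFSCs were -1.19 ± 0.58 and -1.42 ± 0.59 (SE), with adjusted p of 0.182 and 0.119 by limma. Between Thy1- cells and HFSCs they were 0.31 ± 0.58 and 0.08 ± 0.59, so that neither direction could be told. *Klk6*, at 6.93, 29.3, 7.48 and 1.40 in HFSCs, *Klk8*, at 39.2, 108, 66.3 and 46.9, and *Klk10*, at 53.1, 66.2, 53.4 and 12.6, did not pass against either population.

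*St14* was the member that separated Thy1- cells from HFSCs. It was at 432, 753, 594 and 293 in HFSCs, with only Thy1- library 4 inside that range. The log2 difference was 1.16 ± 0.32 (SE; adjusted p = 0.0347 by limma; exact permutation p = 0.0571), the single call among 9 members against 6.08% of all genes. It was lost in a fit of these populations alone (adjusted p = 0.0927), without the filter on low values (0.0562), and without Thy1- library 1, 2 or 3 or HFSC library 1 or 4 (0.0757 to 0.136). Against Thy1hi cells the difference was 0.81 ± 0.32 (SE; adjusted p = 0.102 by limma), and 1.04 with an adjusted p of 0.0378 without Thy1hi library 4.

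DETCs are T cells and not keratinocytes, yet every member but *Klk14* had reads in all 5 libraries. Among the DETC libraries 1, 2, 3, a and b, *Klk5* was at 61.6, 89.5, 115, 35.7 and 175, *Klk7* at 151, 611, 311, 117 and 931, and *Spink5* at 1093, 1727, 2183 and, in a and b, 338 and 2717. Library a was the lowest for all 3 genes and library b the highest. Library a also had the lowest sum of basal markers (9972, the others 33571 to 46131) and of differentiated markers (3785, the others 15311 to 25837), and the highest sum of T cell markers (39659). How much of the kallikrein signal in DETC libraries came from keratinocyte RNA was not tested.

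*Klk8* was at 135, 152, 171, 110 and 163 in DETC libraries 1, 2, 3, a and b, above all libraries of Thy1hi and of Thy1- cells, and library a was again the lowest. *St14* was at 1279, 1585, 1204, 2630 and 1672, with library a the highest. In the fit of Thy1hi cells against DETCs 4 of 9 members passed, against 36.6% of all genes, and 3 (*Klk8*, *Klk10* and *Klk11*) did not overlap, against 33.2%, so that the set stands near the background. *Klk8* was lower in Thy1hi cells by 1.72 ± 0.43 on the log2 scale (SE), or 3.30-fold, with an adjusted p of 0.0030 by limma. *St14* was lower by 0.91 ± 0.30 (SE; adjusted p = 0.0237). The *Klk8* call held in all 20 other settings without blocks, while *St14* lost it without Thy1hi library 1 (adjusted p = 0.0522) or 4 (0.1095), without DETC library a (0.0702) and with quantile normalization (0.0937).

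*Klk11* and *Klk10* were higher in Thy1hi cells than in DETCs. *Klk11* was at 102, 120, 104, 30.2 and 109 in DETC libraries 1, 2, 3, a and b, all below the lowest Thy1hi library. Its log2 difference was 1.43 ± 0.38 (SE; adjusted p = 0.00498 by limma; exact permutation p = 0.00794, the smallest possible), or 2.69-fold. *Klk10* was at 34.2, 49.8, 22.9, 9.60 and 57.6, and its highest DETC library lay just under the lowest Thy1hi library (58.5). Its log2 difference of 1.39 ± 0.47 (SE; adjusted p = 0.0239 by limma) lost the call without Thy1hi library 1 (0.0687) or 4 (0.0527) or DETC library 3 (0.0505) or a (0.0736). *Klk6*, at 10.8, 15.2, 6.32, 5.49 and 36.0 in DETCs, had an adjusted p of 0.0533 and was called in 7 of 19 other settings.

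Thy1- cells against DETCs gave 1 call of 9, against 34.1% of all genes. *Klk11* was higher in Thy1- cells, by 1.32 ± 0.38 on the log2 scale (SE; adjusted p = 0.00967 by limma). *Klk11* and *Klk8* did not overlap between these populations, against 30.9% of all genes. *Klk8* was lower in Thy1- cells in every library, with a log2 difference of -0.90 ± 0.43 (SE; adjusted p = 0.115 by limma; exact permutation p = 0.00794). Both DETC comparisons use the same DETC libraries and are not independent of each other.

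**Figure D5:**
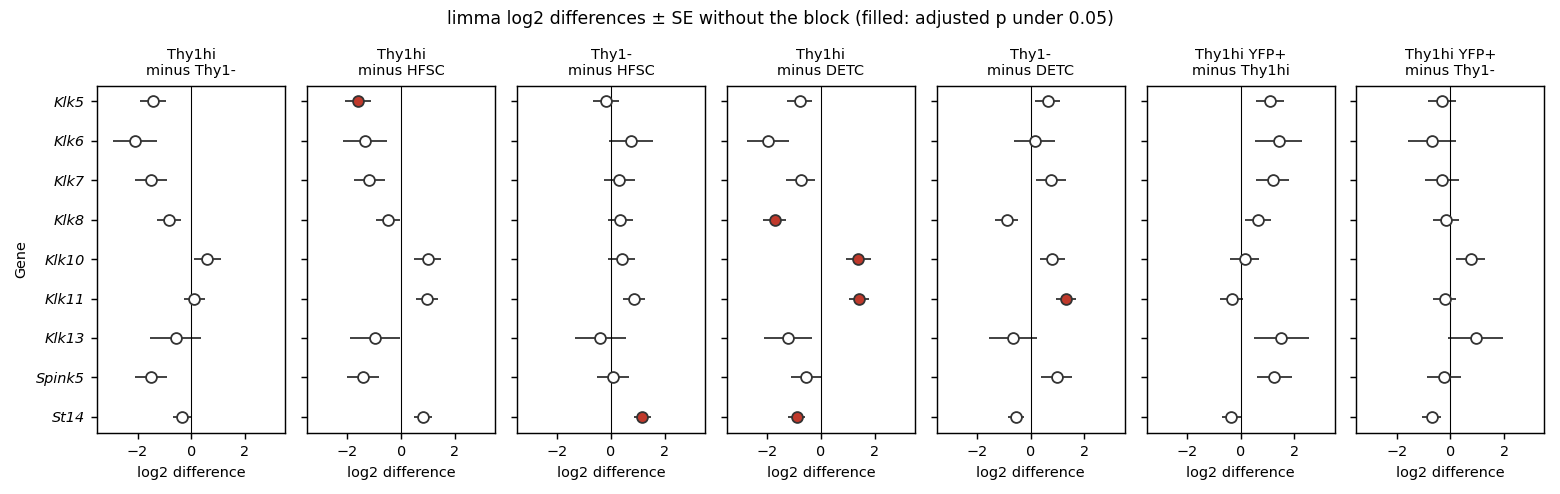
Log2 differences ± SE (horizontal axis) of the 9 members tested in the 7 comparisons, from limma over all 20 libraries without blocks. Filled points have an adjusted p under 0.05: *Klk5* of Thy1hi cells against HFSCs, *St14* of Thy1- cells against HFSCs, *Klk8*, *Klk10*, *Klk11* and *St14* of Thy1hi cells against DETCs, and *Klk11* of Thy1- cells against DETCs.

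The lineage-labelled Thy1hi YFP+ cells were compared with both keratinocyte populations. Against Thy1hi cells limma called none of the 9 members, against 0.0116% of all genes, and edgeR and DESeq2 called none. At an unadjusted p under 0.05 limma had no member and edgeR and DESeq2 had 4 each. Over the 17204 genes tested, 1561, 1634 and 1890 were at that level by limma, edgeR and DESeq2. The YFP+ libraries lay far apart: *Klk7* was at 390, 956 and 211, *Klk5* at 150, 190 and 37.6 and *Spink5* at 2857, 3827 and 905 in YFP+ libraries 1 to 3. Libraries 1 and 2 lay above all Thy1hi libraries for these 3 genes, and library 3 lay inside or below their range. Library 3 also had the lowest sum of differentiated markers (15597, the others 35936 and 58015) and the highest of basal markers (257322, the others 148331 and 212736).

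In the YFP+ libraries 1 to 3, *Klk11* was at 294, 252 and 81.2, *Klk8* at 107, 142 and 20.8, *Klk10* at 115, 65.8 and 91.2 and *St14* at 552, 842 and 663. Library 3 was the lowest for *Klk11* and *Klk8* and lay between the others for *Klk10* and *St14*. *Klk6* was at 8.97 and 21.7 in libraries 1 and 2 and had 2 reads in library 3, and *Klk13* was at 12.0 and 10.8 in libraries 1 and 2 with no read in library 3. Against Thy1- cells none of the 9 members was called by limma, edgeR or DESeq2, against 0.761% of all genes by limma. At an unadjusted p under 0.05 they had 0, 1 and 1 members, against 2307, 2286 and 2606 of 17204 genes. The comparisons share the YFP+ libraries.

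Other genes of the cascade were taken from lists. Of 18 other kallikreins only *Klk9* reached the level for testing, and it passed in none of the 7 comparisons. With the blocks, 4 of 10 other proteases were lower in Thy1hi than in Thy1- cells and none higher, against 3.19% of all genes lower and 3.42% higher: *Asprv1*, a protease that processes filaggrin (log2 difference -1.41 ± 0.20, SE; adjusted p = 0.00344 by limma), *Tmprss4*, a membrane-bound serine protease (-1.11 ± 0.14), *Prss8*, or prostasin, a partner of matriptase (-0.89 ± 0.19), and *Casp14*, a caspase of cornification (-0.76 ± 0.19). Of 11 substrates and receptors 5 were lower and none higher, led by the desmosomal cadherin *Dsc1* (-1.51 ± 0.24), the filaggrin family gene *Flg2* (-1.29 ± 0.22), corneodesmosin *Cdsn*, a substrate of Klk5 and Klk7 (-1.23 ± 0.24), and filaggrin *Flg* (-1.05 ± 0.22). Of 4 other inhibitors *Serpina12*, or vaspin, an inhibitor of Klk7, was lower (-1.54 ± 0.23; adjusted p = 0.00393). The medians of the 3 lists were -0.38, -0.60 and -0.29 against -0.02 over all genes, and limma over all 20 libraries without blocks called none of their genes, although *Tmprss4* passed in a fit of these 2 populations alone without blocks (adjusted p = 0.0484 by limma).

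Against HFSCs, 3 of the 11 substrates and receptors and 1 of the 10 other proteases were higher in Thy1hi cells, 2 and 0 in Thy1- cells, and none was lower, against 13.4% and 6.08% of all genes called in either direction. Against DETCs, 2 were higher and 1 lower among substrates and receptors, 1 and 1 among proteases and 2 and 0 among inhibitors in Thy1hi cells, and 4 and 1, 3 and 1, and 2 and 0 in Thy1- cells. These counts, out of 11, 10 and 4 genes, stand against 36.6% and 34.1% of all genes called in either direction, so that those of substrates and receptors and of proteases in Thy1hi cells are no higher than the background. No gene of the lists was called in the comparisons with YFP+ cells, by limma. *F2rl1*, the protease-activated receptor 2 that Klk5 can cleave, was higher in Thy1hi cells than in HFSCs (1230 against 470 on average, log2 difference 1.48 ± 0.30, SE; adjusted p = 0.0020 by limma) and than in DETCs (1.53 ± 0.28; adjusted p = 0.000206), and likewise in Thy1- cells (1.53 ± 0.30 and 1.58 ± 0.28). *F2r*, the thrombin receptor of the same family, was higher than in HFSCs (1.82 ± 0.26 in Thy1hi cells) and lower than in DETCs (-0.68 ± 0.25). *Tslp*, a cytokine induced downstream of Klk5 and the receptor F2rl1, was higher in Thy1hi cells than in HFSCs (3.48 ± 0.92; adjusted p = 0.0146), with overlapping libraries. *Spint1* and *Spint2*, membrane inhibitors of matriptase, were higher in Thy1hi cells than in DETCs by 1.40 ± 0.37 and 0.72 ± 0.23 on the log2 scale (SE). *Plau*, or urokinase, was higher (1.57 ± 0.34) and the proprotein convertase *Furin* lower (-1.67 ± 0.28) in the same comparison.

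Across the 20 libraries, as a description, log2 values of *Klk5*, *Klk7* and *Spink5* varied together (Pearson r = 0.85 for *Klk5* and *Klk7*, 0.88 for *Klk5* and *Spink5*, 0.83 for *Klk7* and *Spink5*), and *Klk10* varied with *Klk11* (0.74). *Klk7* and *Klk10* had r = 0.30, and *Spink5* and *St14* -0.32. In the 15 libraries other than DETCs the summed markers of differentiated keratinocytes had r = 0.89 with *Klk5*, 0.80 with *Spink5* and 0.65 with *Klk7*, but -0.13 with *Klk10* and -0.06 with *Klk11*, and the summed basal markers had r = 0.77 with *Klk10*. These points share libraries, populations and size factors. Among 17122 other tested genes the pattern most like that of *Klk7* was that of *Cpa4* (r = 0.95), that of *Klk5* was matched most closely by *Dgat2* (0.94), *Spink5* by *Gm94* (0.97), *Klk10* by *F3* (0.93), *Klk11* by *Vstm5* (0.95), *Klk8* by *Gm2238* (0.86), *Klk6* by *Tmem229b* (0.85), *St14* by *Tnip1* (0.97) and *Klk13* by *Psd2* (0.75).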

How the data were processed

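The deposited signal was a table of DESeq2-normalized counts per Ensembl gene, which the authors made from reads aligned to mm10 with STAR and counted with featureCounts (versions and strand setting not given in the sources used here). Each value is whole reads divided by 1 size factor per library (0.729 to 1.43), and multiplying back gave whole reads in 100% of values (tolerance 0.0051). Of the reads, 13.1% to 41.5% fell on the ribosomal gene *Rn45s*. The column of Thy1- library 4 followed an order of names that ignores hyphens and was put back, after which r against the Thy1- mean at 1044 moved, expressed genes was 0.933 in place of 0.0322. Library kits and sequencing runs were stated without assignment to samples, so no batch term could be used. DETC libraries a and b carry numbers that match no label.

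Differences were fitted with limma 3.58.1 in R 4.3.3 (lmFit, then eBayes with trend) on log2(value + 1) for all 20 libraries together and for genes of at least 10 in at least 3 libraries. A fold change on this scale understates the change of low genes. Tests are two-sided, adjusted by Benjamini-Hochberg over 17204 genes, threshold 0.05. Adjusted p-values are from limma unless another tool is named. Same-numbered Thy1hi and Thy1- libraries had correlations of 0.293 to 0.716 between their deviations from the population means, and libraries of different number -0.651 to 0.514. As every same-number value was over 0.1, their number was used as a block in a fit of these populations alone. In the other comparisons the numbers did not pair. Exact permutation tests used mean log2 values. Alternatives were a pseudocount of 0.1 or 10, omission of the filter, a filter on means under 50, the same total without *Rn45s*, quantile normalization, fits of 2 populations, blocks, libraries left out, the deposited row order, and edgeR 4.0.16 and DESeq2 1.42.0 on whole reads. Pairs left out, edgeR with blocks and the deposited order with blocks were added after the data were seen.

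Exon lengths, positions and overlaps came from GENCODE vM21 (50567 of 53380 identifiers with the same coordinates), promoters from RefSeq. The members, gene lists and tests were chosen with earlier results of these data known. Every member is named, and of each list at most the 4 called genes with the largest change per comparison, apart from the markers. The most alike gene is the 1 with the highest r outside members and lists. Scripts were tested on simulated data. Tables and figures were made with pandas 2.3.3, numpy 2.4.6, matplotlib 3.10.9 and Python 3.11.15. Single-cell data, staining and lineage tracing were not analysed here.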

Additional observations from a re-analysis of the deposited data

Results flagged for a closer look

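Of 36 groups of 4 or 5 libraries checked for a library far from the rest, 5 had one. The check set the gap of the outermost library against the range of its group. A chance rate of about 1 in 20 would hold for independent and normally distributed values only. These genes share libraries and some have few reads, so whether 5 exceeds chance cannot be judged. *Klk5* was at 79.55 in Thy1hi library 4, with the others at 38.6 to 42.3, and *Klk6* was at 9.22 in Thy1hi library 2, with the others at 0.81 to 1.94. *Klk11* was at 30.18 in DETC library a, with the others at 101.8 to 120.0, in the library that also had the lowest sums of keratinocyte markers. *Klk13* was at 11.04 in Thy1hi library 1, with no read in the others, and at 7.60 in HFSC library 2, with the others at 1.15 to 2.14, both from few reads.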

How the results depend on the processing

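Counts of called members changed as follows. For Thy1hi against Thy1- cells the count was 0, and with the replicate block 4, or 5 by edgeR, 1 with the deposited row order, and 4, 3, 2 and 4 with pair 1, 2, 3 or 4 left out. A block over all populations called 0 of the members here, with *Klk7* at an adjusted p of 0.0523. For Thy1hi cells against HFSCs the count was 1, with 0 to 2 when libraries were left out, 2 with only these populations and 5 with a block over all populations. For Thy1- cells against HFSCs it was 1, with 0 to 1 when libraries were left out, 0 without the filter or with only these populations, and 2 with the block. Against DETCs it was 4 for Thy1hi cells, with 2 to 5 when libraries were left out, and 1 for Thy1- cells, or 2 with only these populations. For YFP+ against Thy1- cells it was 0, or 1 with the block. Except between Thy1hi and Thy1- cells the numbers of the block do not pair libraries, and the causes of these changes were not tested.

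Of 1303 refits of 63 single differences, 33 turned the sign, none of them of a called difference. Leaving libraries out, log2 differences between Thy1- cells and HFSCs ranged from -0.43 to 0.053 (*Klk5*), -0.0068 to 0.66 (*Klk7*), -0.13 to 0.64 (*Klk10*), -0.82 to 0.10 (*Klk13*) and -0.12 to 0.39 (*Spink5*). Between YFP+ and Thy1- cells they ranged from -0.77 to 0.38 (*Klk5*), -1.37 to 0.10 (*Klk6*), -0.89 to 0.20 (*Klk7*), -0.69 to 0.67 (*Klk8*), -0.56 to 0.36 (*Klk11*) and -0.66 to 0.38 (*Spink5*). Between YFP+ and Thy1hi cells they ranged from -0.031 to 0.36 (*Klk10*) and -0.67 to 0.25 (*Klk11*), for Thy1hi against Thy1- cells from -0.080 to 0.24 (*Klk11*), and for Thy1- cells against DETCs from -0.27 to 0.63 (*Klk6*). Signs also turned for *Klk8* in YFP+ against Thy1- cells (0.20 by DESeq2, 0.22 by edgeR), *Spink5* in Thy1- cells against HFSCs (-0.027 with quantile normalization), *Klk11* in Thy1hi against Thy1- cells (-0.030 with the replicate block without pair 4), *Klk13* in that comparison (0.22 by edgeR, 0.048 with quantile normalization, 0.15 with the replicate block without pair 2), and, with the block over all populations, *Klk10* in YFP+ against Thy1hi cells (-0.069) and *Klk13* in Thy1- cells against DETCs (0.22). DESeq2 gave no adjusted p for 6 differences, which are left out. Reads of *Klk6*, *Klk13* and *Klk14* limit what these libraries can show.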
